A study of Homo sapiens with 8 samples.

Results

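The 45 genes described here encode the protein folding and quality control machinery of the endoplasmic reticulum (ER), namely its chaperones, its disulfide isomerases and oxidases, and the factors of ER-associated degradation (ERAD). They were chosen by gene symbol with earlier results of these data known, so shares set beside those of all genes are descriptions. All 45 were found among the 15745 genes with a usable symbol in the count table. RNA-seq had been performed on 8 libraries of HuH7, a wild-type human hepatoma-derived cell line, to ask how the ginsenoside Rk2, a triterpene glycoside of ginseng, alters transcription under a cell model of liver ischemia and reperfusion, deprivation of oxygen and glucose with later return of both (OGD/R). All cells were held for 6 h in medium without glucose at 1% oxygen and then for 6 h under normoxia. In this second phase the cells of 4 libraries received DMSO (I/R+DMSO) and those of the other 4 received 20 µM of Rk2 (I/R+Rk2). Cells without OGD/R are not part of this comparison, so every difference below is one between Rk2 and DMSO after OGD/R in a single tumor-derived line. The labels do not say whether replicates were separate cultures, so p-values measure the spread between these samples, which may be technical.

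Proteins that enter the ER are bound by the chaperone BiP, encoded by HSPA5, whose cycle is driven by J-domain cochaperones and nucleotide exchange factors. Disulfide isomerases and the ERO1 oxidases form disulfide bonds, and the lectins calnexin and calreticulin retain glycoproteins until they have folded. Proteins that fail are trimmed by EDEM mannosidases, handed by the lectins OS9 and ERLEC1 to the SEL1L-SYVN1 ubiquitin ligase, and extracted to the cytosol for the proteasome. Many of these genes are targets of the unfolded protein response (UPR), in which IRE1, PERK and ATF6 report on the folding load of the ER, and secretory cells such as hepatocytes express them strongly.

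The best known promoter element of this gene set is the ER stress response element (ERSE), CCAAT and CCACG separated by 9 bases, together with the shorter ERSE-II, ATTGG and CCACG separated by 1 base. RefSeq promoter windows (GRCh38.p14, 250 bases before to 50 after the annotated start) were at hand for 40 of the 45 genes. Both strands were searched for exact matches only, so sites that differ in a fixed base were not counted. An ERSE was present in 6 of the 40 (15.0%), against 0.0806% of 27305 promoters in all, and an ERSE-II in 3 (7.50%), against 0.0549%. The ERSE matches are shown because the element is rare among promoters in general. Of the BiP system genes only HSPA5 and HSP90B1 had an exact match. Each is written 5′ to 3′ in the motif's own direction, with the fixed bases in capitals. First base means the base of the match farthest upstream on the gene's strand, counted from the start of transcription. In HSP90B1 at -89, ERO1B, CRELD2 and CALR the element lies on the opposite strand, so that base is the last one written.
HSPA5, first base at -66: CCAATcggcggcctCCACG
HSP90B1, first base at -194: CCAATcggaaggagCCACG
HSP90B1, first base at -89: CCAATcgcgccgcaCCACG
ERO1B, first base at -243: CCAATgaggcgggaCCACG
CRELD2, first base at -80: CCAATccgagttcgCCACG
CALR, first base at -225: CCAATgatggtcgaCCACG
CANX, first base at -151: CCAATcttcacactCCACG

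The ERSE-II matches, written and counted in the same way, were in a different trio of genes, 1 of which had 2 copies. Those of HYOU1 and SDF2L1 lie on the opposite strand.
HYOU1, first base at -185: ATTGGaCCACG
HYOU1, first base at -79: ATTGGaCCACG
SDF2L1, first base at -188: ATTGGtCCACG
HERPUD1, first base at -117: ATTGGgCCACG

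The 250 bases upstream of HSPA5, HSP90B1, ERO1B and CRELD2 are given because they carry an ERSE with, in the expression data below, the smallest p-values among such genes that were higher, and the single such gene with a negative fold change. HERPUD1 was added after its values were seen, as the ERSE-II gene with the largest fold change. Capitals mark the fixed bases of the elements, which read CGTGG and ATTGG where the ERSE lies on the opposite strand.
HSPA5, chr9:125241344-125241593, minus strand: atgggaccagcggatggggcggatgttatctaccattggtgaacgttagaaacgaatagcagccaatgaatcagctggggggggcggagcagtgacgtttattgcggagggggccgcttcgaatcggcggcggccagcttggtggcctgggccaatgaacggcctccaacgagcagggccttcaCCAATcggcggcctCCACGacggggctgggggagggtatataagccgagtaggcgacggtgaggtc
HSP90B1, chr12:103930160-103930409, plus strand: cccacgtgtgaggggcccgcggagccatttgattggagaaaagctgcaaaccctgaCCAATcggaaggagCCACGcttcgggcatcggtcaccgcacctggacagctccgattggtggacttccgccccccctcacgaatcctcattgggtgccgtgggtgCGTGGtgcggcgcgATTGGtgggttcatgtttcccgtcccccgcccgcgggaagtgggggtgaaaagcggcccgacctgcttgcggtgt
ERO1B, chr1:236281959-236282208, minus strand: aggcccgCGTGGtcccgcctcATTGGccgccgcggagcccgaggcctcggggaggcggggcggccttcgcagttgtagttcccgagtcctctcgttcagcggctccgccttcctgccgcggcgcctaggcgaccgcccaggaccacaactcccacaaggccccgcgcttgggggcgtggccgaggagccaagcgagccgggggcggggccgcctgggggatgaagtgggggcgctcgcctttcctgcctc
CRELD2, chr22:49918384-49918633, plus strand: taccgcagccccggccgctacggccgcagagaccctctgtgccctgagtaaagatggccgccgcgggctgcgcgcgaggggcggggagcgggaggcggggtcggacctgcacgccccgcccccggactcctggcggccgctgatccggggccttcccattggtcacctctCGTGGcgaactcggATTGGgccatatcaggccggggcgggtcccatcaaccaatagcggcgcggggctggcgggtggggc
HERPUD1, chr16:56931892-56932141, plus strand: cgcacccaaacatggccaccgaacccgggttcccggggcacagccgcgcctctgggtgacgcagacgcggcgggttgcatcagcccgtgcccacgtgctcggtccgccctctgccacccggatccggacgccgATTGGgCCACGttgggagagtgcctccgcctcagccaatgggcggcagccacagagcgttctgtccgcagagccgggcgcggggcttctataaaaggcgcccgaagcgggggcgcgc

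The sequence TGACG directly followed by TGG, the core bound by XBP1 and ATF6, was in 5 promoters (12.5%, against 0.795% of all), those of HYOU1, DNAJC10, TXNDC11, VCP and UBE2J1. In HYOU1 1 such core overlapped an ERSE-II. The core of the ATF4 element, TGATG, any base and AA, was in 1 promoter (2.50%, against 3.67% of all), that of HERPUD1. These matches are descriptions of sequence and not evidence of binding.

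Library totals ranged from 16374082 to 30310479 counts. I/R+DMSO replicate 1 stood apart from the other I/R+DMSO libraries on the second principal component (78.7 against -48.6 to -41.4). It was also the most distant of them on the first (-114.4 against -54.8 to -30.0), the component on which the 2 groups lay apart. Hepatocyte markers were all detected, with ALB at 2288 ± 69.7 CPM and AFP at 5937 ± 303 CPM in I/R+DMSO (SD, n = 4), and their sum ranged from 12020 to 13090 CPM in I/R+DMSO and from 12890 to 13280 CPM in I/R+Rk2. CPM here stands for counts scaled to a common library size after TMM normalization. Of 13 markers of blood, endothelium, stroma and bile duct, 10 were in the count table, ACTA2 and KRT7 had at most 2 counts in any library, and the sum of the list ranged from 824 to 875 CPM in I/R+DMSO and from 762 to 858 CPM in I/R+Rk2. LYZ made up most of that sum (646 ± 22.3 CPM in I/R+DMSO, SD, n = 4). Of the 7 tested markers of this list, 2 were lower at an adjusted p below 0.05, 1 of them by more than 1.5-fold. Log2 fold changes in the list ran from -1.25 to 0.09. The bile duct keratin KRT19 fell (log2 fold change -0.55, edgeR adjusted p = 0.00204). The part of these markers in the results below was not tested. All libraries were of cultured HuH7 cells, so these markers do not measure a share of other tissues. In bulk RNA of a single line, fewer cells that express a gene and less RNA per cell cannot be told apart.

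Of the 45 genes, 44 passed the filter of at least 10 counts in at least 4 libraries and were tested with edgeR's quasi-likelihood test. In I/R+Rk2, 20 were higher and 1 was lower at an adjusted p below 0.05, while 23 did not pass. Over all 12910 genes tested, 11.0% were higher and 7.24% lower. The median log2 fold change of the 44 genes was 0.22, against -0.002 over all genes, and 35 of them had positive and 9 negative values. Of the 21 that passed, 6 changed by more than 1.5-fold, a size that 3.04% of all genes reached with the same adjusted p. In 26 of the 44 genes no library of one group fell within the range of the other, against 28.3% of all genes. The plot of fold changes by role shows that the genes past the threshold were spread over the BiP system (6 of 10), oxidative folding (6 of 14) and ERAD (8 of 16 tested, 1 of them lower), with none among the 3 genes of the lectin cycle.

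**Figure D1:**
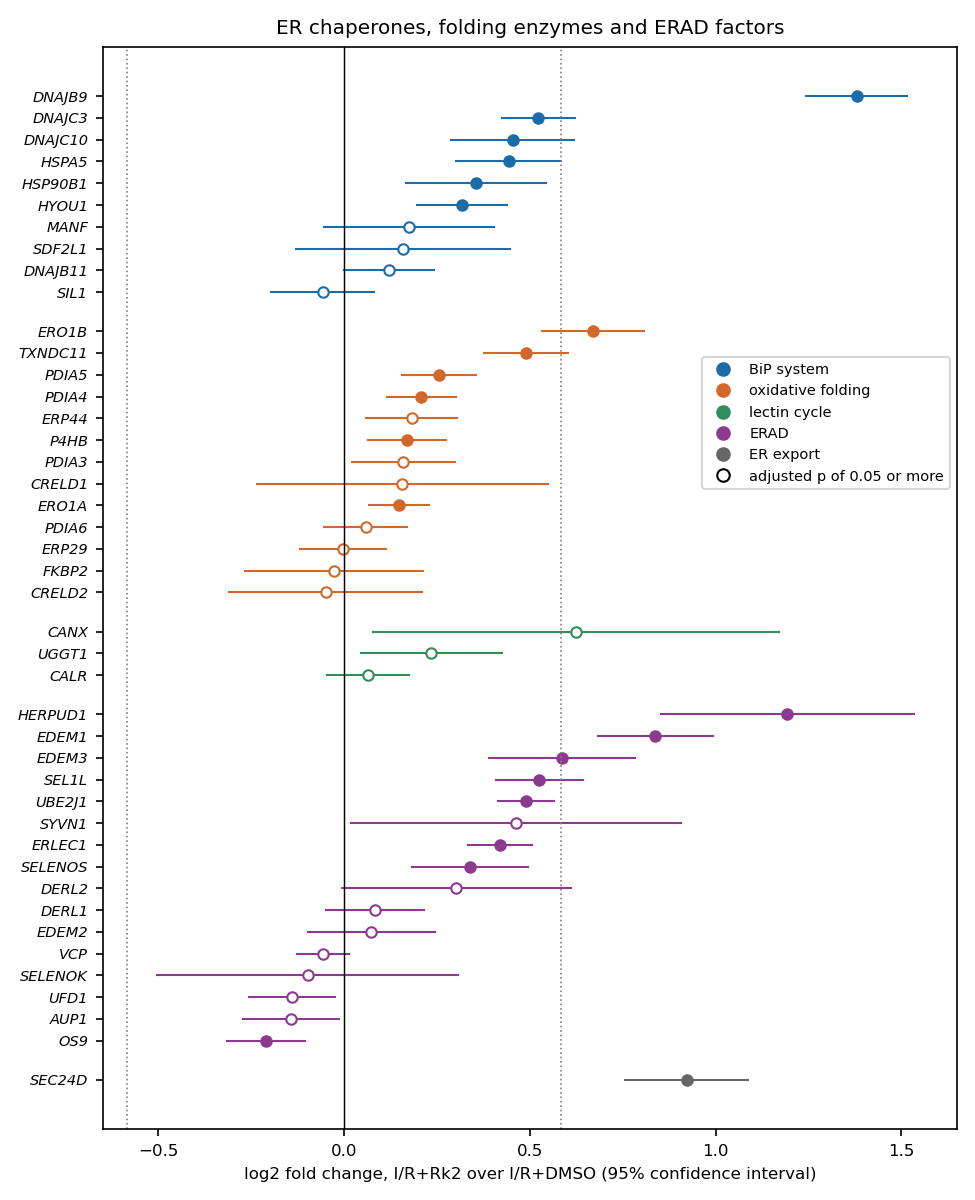
Log2 fold change of 43 tested genes (I/R+Rk2 over I/R+DMSO, horizontal axis) with its 95% confidence interval, ordered within each role by size; filled points have an adjusted p below 0.05, dotted lines mark 1.5-fold, and TXNDC5 and the untested DERL3 are left out. DNAJB9 (1.38) and HERPUD1 (1.19) lie farthest to the right, and OS9 (-0.21) is the 1 filled point left of 0.

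Transcript levels of these genes, compared between genes as FPKM because that unit is scaled to gene length, covered a wide range in I/R+DMSO. CALR, the lectin chaperone calreticulin, was highest at 1026 ± 64.1 FPKM, followed by the isomerase P4HB at 652 ± 36.2 FPKM (SD, n = 4). HSP90B1 (343 ± 22.9 FPKM) and HSPA5 (333 ± 25.6 FPKM) came next and did not differ beyond their spread. CANX was at 281 ± 29.8 FPKM and the ATPase VCP at 222.5 ± 5.55 FPKM. At the low end ERO1B was at 1.99 ± 0.130 FPKM, CRELD1 at 4.59 ± 0.656 FPKM and EDEM3 at 6.26 ± 0.824 FPKM (SD, n = 4). DERL3, a derlin, had 0 counts in every I/R+DMSO library, which allows up to 0.163 CPM at the depth of the shallowest, and 3, 2, 0 and 0 counts in the Rk2 group (p = 0.429 in an exact two-sided permutation test). Its counts were too few for a comparison. The floor covers counting error only.

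In the BiP system, BiP itself, its large exchange factor and its lumenal HSP90 partner rose together with 3 of the J-domain cochaperones. The median log2 fold change of the 10 genes was 0.34. DNAJB9 (ERdj4), the J-protein that delivers misfolded proteins to BiP and holds IRE1 in check, was at 50.4, 46.5, 55.9 and 50.7 CPM in I/R+DMSO and at 128.5, 136, 129.6 and 135.5 CPM in I/R+Rk2. All 4 I/R+Rk2 libraries were thus more than 2-fold above any I/R+DMSO library, and the log2 fold change was 1.38 (SE 0.0597, edgeR adjusted p = 2.1e-05). HSPA5, the central chaperone, was at 1722, 1612, 1563 and 1401 CPM in I/R+DMSO and at 2134, 2220, 2139 and 2064 CPM in I/R+Rk2. Its groups did not overlap, and it rose by 35.9% (log2 fold change 0.44, edgeR adjusted p = 0.00344). DNAJC3 (P58IPK), a cochaperone that also restrains PERK, was at 53.1, 53.6, 54.6 and 50.9 CPM in I/R+DMSO and at 73.4, 76.1, 78.3 and 77.0 CPM in I/R+Rk2. The spread within each group was small beside the difference between them (log2 fold change 0.52, edgeR adjusted p = 3.6e-04).

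HSP90B1 (GRP94), the lumenal HSP90, was at 1114, 951, 868 and 934 CPM in I/R+DMSO and at 1169, 1224, 1194 and 1362 CPM in I/R+Rk2. I/R+DMSO replicate 1 came close to the lowest I/R+Rk2 library, and the log2 fold change was 0.36 (edgeR adjusted p = 0.0218). It lost the threshold when replicate 2 or 3 of I/R+DMSO (adjusted p = 0.0547 and 0.0512) or replicate 4 of I/R+Rk2 (0.0560) was left out. DNAJC10 (ERdj5), which reduces disulfides of ERAD clients, rose by 0.45 and HYOU1, the exchange factor GRP170, by 0.32 on the log2 scale (edgeR adjusted p = 0.00533 and 0.00639). DNAJC10 overlapped between groups in FPKM (6.54 to 13.1 FPKM in I/R+DMSO and 9.31 to 18.6 FPKM in I/R+Rk2) and did not pass in limma on FPKM (adjusted p = 0.568 and 0.569 with the 2 pseudocounts) or after correction for length and GC content (0.10, adjusted p = 0.290). The remaining members of this system did not pass. MANF had a log2 fold change of 0.18, SDF2L1 of 0.16, DNAJB11 (ERdj3) of 0.12 and the exchange factor SIL1 of -0.06. MANF and DNAJB11 did pass when replicate 1 of I/R+DMSO was left out. After correction for length and GC content SDF2L1 and MANF passed as higher (edgeR adjusted p = 0.0264 and 0.0347). SIL1 passed in no setting.

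**Figure D2:**
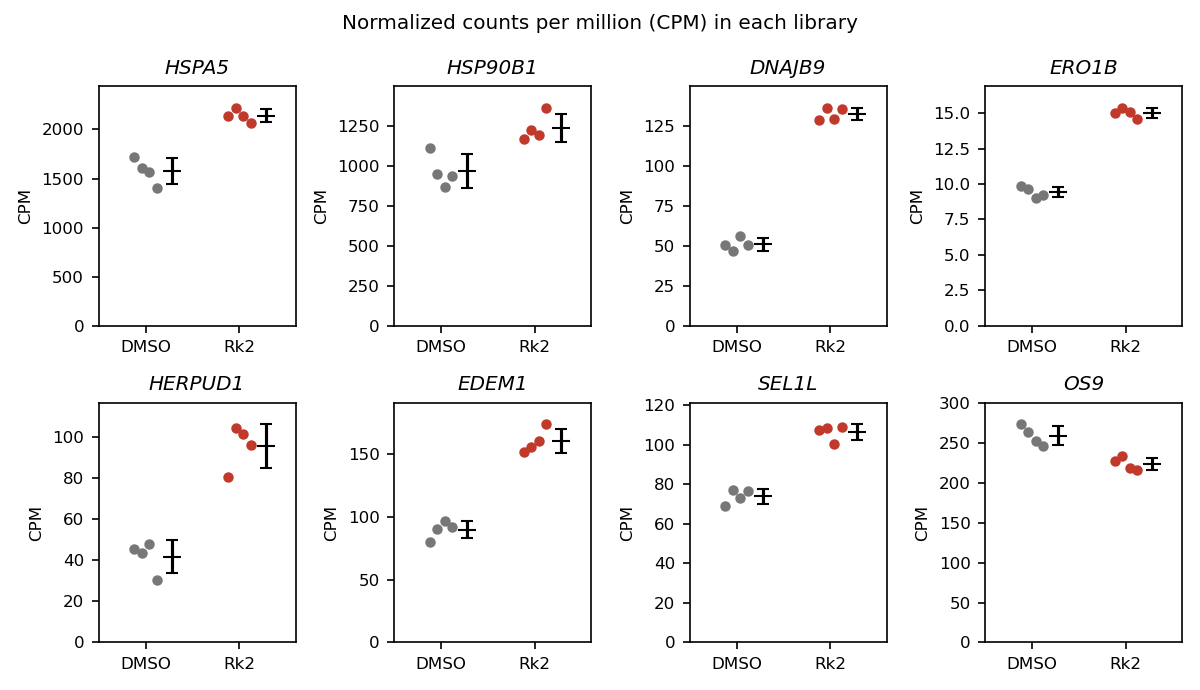
CPM after TMM normalization in each library (points) of I/R+DMSO (DMSO) and I/R+Rk2 (Rk2) for 8 genes, with the mean and SD of each group (n = 4) beside them and axes that start at 0. In each of the 8 genes the groups do not overlap; OS9 is the 1 gene of the 8 that was lower in I/R+Rk2, and the lowest HSP90B1 value of I/R+Rk2 (1169) lies near I/R+DMSO replicate 1 (1114).

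Among the 14 genes of oxidative folding 6 rose, and the median log2 fold change was 0.16. ERO1B, the less abundant of the 2 oxidases that recharge disulfide isomerases, was at 9.83, 9.66, 9.04 and 9.20 CPM in I/R+DMSO and at 15.0, 15.4, 15.1 and 14.6 CPM in I/R+Rk2. This difference was many times the spread within either group (log2 fold change 0.67, SE 0.0599, edgeR adjusted p = 5.6e-04). P4HB, the classical protein disulfide isomerase, was at 919, 892, 839 and 856 CPM in I/R+DMSO and at 1006, 1035, 966 and 937 CPM in I/R+Rk2. Its groups did not overlap, but the rise was 12.5% (log2 fold change 0.17, edgeR adjusted p = 0.0369). The call was lost when any of I/R+DMSO replicates 2, 3 and 4 or I/R+Rk2 replicates 1, 2 and 3 was left out, with adjusted p-values from 0.0665 to 0.0919, and with upper-quartile normalization (0.0616). TXNDC11, a thioredoxin-domain protein that works with EDEM mannosidases, rose by 0.49 on the log2 scale (edgeR adjusted p = 8.8e-04). The isomerases PDIA5 and PDIA4 rose by 0.26 and 0.21 and the main oxidase ERO1A by 0.15 on the log2 scale (edgeR adjusted p = 0.00681, 0.0120 and 0.0246). ERO1A lost the threshold when replicate 3 of I/R+DMSO or any of replicates 1, 2 and 4 of I/R+Rk2 was left out, with adjusted p-values of up to 0.0693.

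The members of this group that did not pass were ERP44 (log2 fold change 0.18, edgeR adjusted p = 0.0505), PDIA3, PDIA6, ERP29, CRELD1, CRELD2, FKBP2 and TXNDC5. Their log2 fold changes other than that of TXNDC5 lay between -0.05 (CRELD2) and 0.18 (ERP44). PDIA3 and ERP44 did pass as higher when replicate 1 of I/R+DMSO was left out. ERP44 retains ERO1 oxidases in the early secretory pathway.

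TXNDC5, a disulfide isomerase with several thioredoxin domains, had the largest fold change of all 44 genes without passing the test, and it was described in detail after its values were seen. It was at 27.5, 37.1, 34.9 and 37.3 CPM in I/R+DMSO and at 37.7, 45.8, 552 and 43.5 CPM in I/R+Rk2. The single high library, I/R+Rk2 replicate 3, set the log2 fold change of 2.31 (SE 0.946, edgeR adjusted p = 0.127), and without it the value was 0.31. In the GENCODE v29 annotation 60.6% of the exon bases of TXNDC5 are shared on the same strand with BLOC1S5-TXNDC5, a read-through gene. BLOC1S5-TXNDC5 was at 463 to 470 CPM in I/R+DMSO and at 521, 527, 4.12 and 502 CPM in I/R+Rk2, so the library that was high for TXNDC5 was low for the read-through gene. FPKM showed the same exchange, with 171 FPKM for TXNDC5 and 1.15 FPKM for BLOC1S5-TXNDC5 in I/R+Rk2 replicate 3. The sum of both genes was 491, 507, 504 and 500.3 CPM in I/R+DMSO and 559, 572, 556 and 546 CPM in I/R+Rk2. No library stood apart in the sum, and its groups did not overlap (log2 fold change 0.16, SE 0.0312, edgeR adjusted p = 0.0123). Which of the 2 genes the reads came from cannot be told apart in these counts. With the sum in place of TXNDC5, 21 of the genes were higher.

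**Figure D3:**
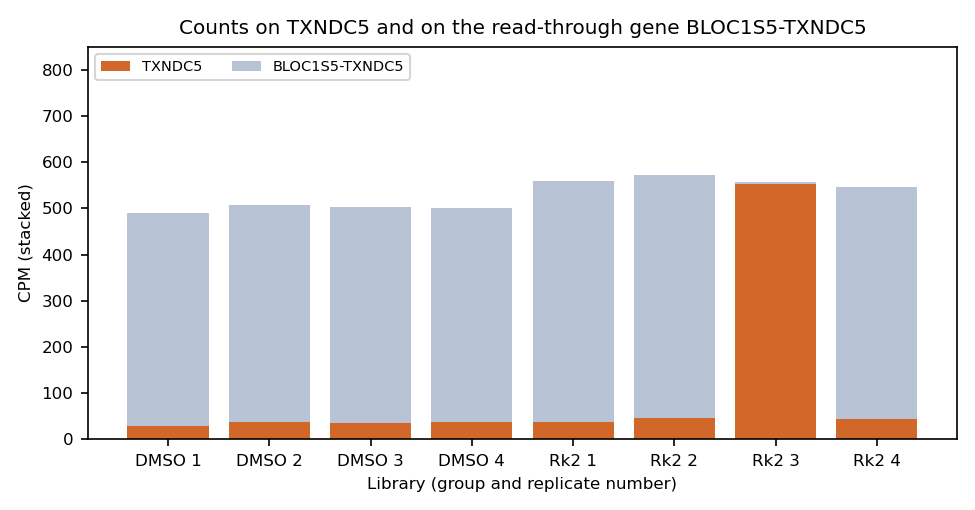
CPM counted on TXNDC5 (orange) and on the read-through gene BLOC1S5-TXNDC5 (grey-blue), stacked, in each of the 8 libraries. In I/R+Rk2 replicate 3 nearly the whole bar is TXNDC5 (552 CPM), while the height of the bars, from 491 to 507 CPM in I/R+DMSO and from 546 to 572 CPM in I/R+Rk2, separates the groups.

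None of the lectin cycle genes passed. CALR was at 1432, 1379, 1378 and 1254 CPM in I/R+DMSO and at 1366, 1444, 1467 and 1415 CPM in I/R+Rk2. These ranges overlapped, and the log2 fold change was 0.06 (95% confidence interval -0.05 to 0.17, edgeR adjusted p = 0.380). CANX, the membrane-bound partner of CALR, showed a log2 fold change of 0.62, with its interval running from 0.08 to 1.17 (edgeR adjusted p = 0.104), and was looked at more closely after its values were seen. Its counts were widely spread, from 573 to 1083 CPM in I/R+DMSO and from 901 to 1508 CPM in I/R+Rk2, and the groups overlapped. Its FPKM did not overlap, at 263 to 325.5 FPKM in I/R+DMSO and 346 to 438 FPKM in I/R+Rk2. Limma on FPKM and DESeq2 on the counts called it higher. UGGT1, the glucosyltransferase that returns unfolded glycoproteins to the cycle, had a log2 fold change of 0.23 (edgeR adjusted p = 0.0834).

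In ERAD 7 of the 16 genes tested passed as higher, namely HERPUD1, EDEM1, EDEM3, SEL1L, UBE2J1, ERLEC1 and SELENOS, while OS9 passed as lower. The median log2 fold change of the 16 was 0.32. HERPUD1, a membrane protein of the SYVN1 complex and a strongly stress-responsive gene, was at 45.5, 43.7, 47.9 and 30.4 CPM in I/R+DMSO and at 80.7, 104, 102 and 96.2 CPM in I/R+Rk2. Its lowest I/R+Rk2 library was above its highest I/R+DMSO library by more than the range within I/R+DMSO, and the log2 fold change was 1.19 (SE 0.148, edgeR adjusted p = 0.00221). In FPKM its spread was wider (14.6 to 42.1 FPKM in I/R+DMSO and 44.9 to 88.4 FPKM in I/R+Rk2), and limma on FPKM did not pass it (adjusted p = 0.0559). EDEM1, a mannosidase-like protein that marks misfolded glycoproteins for removal, was at 80.3, 90.1, 96.8 and 92.2 CPM in I/R+DMSO and at 152, 156, 160.5 and 174 CPM in I/R+Rk2. The groups lay far apart (log2 fold change 0.84, edgeR adjusted p = 3.4e-04). EDEM3 rose by 0.59 on the log2 scale (edgeR adjusted p = 0.00401), whereas EDEM2, of the same family, had a log2 fold change of 0.07 (edgeR adjusted p = 0.531). The difference between the EDEM genes was not tested.

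SEL1L, the adaptor that links clients to the ligase, was at 68.9, 77.3, 72.9 and 76.6 CPM in I/R+DMSO and at 107.5, 109, 100.5 and 109 CPM in I/R+Rk2. All I/R+Rk2 libraries were above all I/R+DMSO libraries (log2 fold change 0.53, edgeR adjusted p = 7.7e-04). SYVN1 (HRD1), the ubiquitin ligase itself, was at 39.1, 49.7, 52.5 and 45.6 CPM in I/R+DMSO and at 69.6, 76.9, 41.0 and 70.1 CPM in I/R+Rk2. Replicate 3 of I/R+Rk2 fell within the I/R+DMSO range, and the log2 fold change of 0.46 did not pass (edgeR adjusted p = 0.131). Without that library it was 0.63 (edgeR adjusted p = 0.0134). UBE2J1, the membrane-anchored ubiquitin-conjugating enzyme of this pathway, was at 111, 113, 113 and 109 CPM in I/R+DMSO and at 156, 160.2, 154 and 157 CPM in I/R+Rk2. The values within each group were nearly alike (log2 fold change 0.49, SE 0.0329, edgeR adjusted p = 1.4e-04).

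The 2 lectins that deliver glycoproteins to SEL1L moved in opposite directions. ERLEC1 (XTP3-B) was at 113, 112, 109.7 and 116 CPM in I/R+DMSO and at 155, 149.6, 144 and 153 CPM in I/R+Rk2, a rise of 0.42 on the log2 scale (edgeR adjusted p = 5.9e-04). OS9 was at 273.5, 263.5, 253 and 246 CPM in I/R+DMSO and at 227, 233, 219 and 216 CPM in I/R+Rk2. It was the 1 gene of the 44 that passed the test as lower (log2 fold change -0.21, SE 0.0454, edgeR adjusted p = 0.0171). Its groups were also apart in FPKM (114 to 124 FPKM against 109 to 112 FPKM), but the value shrank to -0.09 and did not pass in limma (adjusted p = 0.220). The difference between the 2 lectins was not tested as such.

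SELENOS, a selenoprotein that ties VCP to the membrane complex, rose by 0.34 on the log2 scale (edgeR adjusted p = 0.0130). Its FPKM overlapped (50.8 to 73.0 FPKM in I/R+DMSO and 65.2 to 103 FPKM in I/R+Rk2), and limma on FPKM did not pass it (adjusted p = 0.269 and 0.270 with the 2 pseudocounts). VCP, the ATPase that pulls clients out of the membrane, had a log2 fold change of -0.06, its cofactor UFD1 of -0.14, and AUP1, which recruits a ubiquitin-conjugating enzyme to the complex, of -0.14. In these 3 genes every I/R+Rk2 library was below every I/R+DMSO library. Groups were apart, in either direction, in 28.3% of all genes. None of the 3 passed the test (edgeR adjusted p = 0.234, 0.0878 and 0.114). The derlins DERL1 and DERL2 had log2 fold changes of 0.08 and 0.30 and SELENOK of -0.10, and none of them passed.

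SEC24D, a COPII coat subunit that selects cargo for export from the ER and is the 1 member outside folding and degradation, was at 59.5, 68.0, 66.6 and 68.9 CPM in I/R+DMSO and at 110.3, 133, 128 and 127 CPM in I/R+Rk2. It rose by 89.5% with groups far apart (log2 fold change 0.92, SE 0.0723, edgeR adjusted p = 2.9e-04).

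Members with an ERSE or ERSE-II in their promoter did not all pass the test. Of the 9, 5 were higher (HSPA5, HSP90B1, HYOU1, ERO1B and HERPUD1), with a median log2 fold change of 0.36, while CALR, CANX, CRELD2 and SDF2L1 did not pass. Of the 31 with no exact match to either element in the window, 14 were higher and 1 lower, with a median of 0.21. Of all genes 11.0% were higher and 7.24% lower. DNAJB9, DNAJC3, EDEM1 and SEL1L, all higher in I/R+Rk2, were in this second set. The calls in both sets depended on the processing. After correction for length and GC content CALR and SDF2L1 passed as higher (edgeR adjusted p = 0.0189 and 0.0264). In the second set MANF was then gained, and DNAJC10 and ERO1A were lost. CANX passed in DESeq2 and in limma on FPKM. The difference between these sets was not tested.

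Fold changes were related to gene length and base composition across the whole table. Over 12898 genes the Spearman correlation of log2 fold change with gene length, derived from counts and FPKM, was 0.39, and over the 44 members it was 0.50; genes within a library share depth and composition, so these are descriptions. The median length of the members was close to that of all genes (percentile 50.1). A correction for length in each library kept 20 of the 21 calls and lost ERO1A, and DNAJB11, MANF and CALR then passed as higher and VCP as lower. The corrected values of several long genes were smaller. SEL1L went from 0.53 to 0.33, EDEM3 from 0.59 to 0.38, DNAJC3 from 0.52 to 0.34 and DNAJC10 from 0.45 to 0.23. With GC content added to the correction, SEL1L was at 0.23, EDEM3 at 0.27, DNAJC3 at 0.25, UBE2J1 at 0.27 and ERO1B at 0.41, all still past the threshold, and DNAJC10 at 0.10 was not (adjusted p = 0.290). Under the same correction HERPUD1 was at 1.27, DNAJB9 at 1.26 and P4HB at 0.30. ERO1A changed sign there (-0.08). Whether length and composition act on the libraries or mark the genes themselves was not tested.

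**Figure D4:**
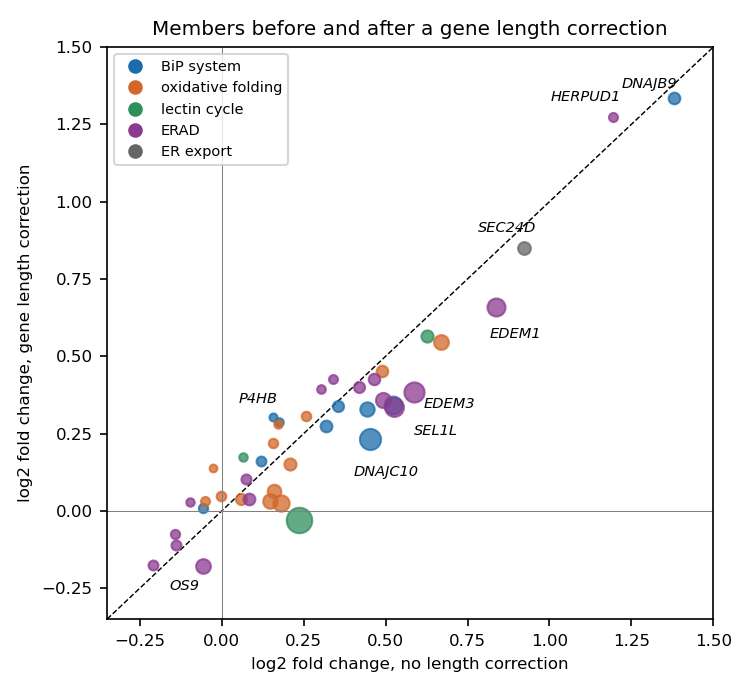
Log2 fold change of the members before (horizontal axis) and after (vertical axis) correction for gene length, colored by role, with larger points for longer genes; TXNDC5 lies outside the axes, and the dashed line marks equal values. Long genes such as SEL1L (0.53 to 0.33), EDEM3 (0.59 to 0.38) and DNAJC10 (0.45 to 0.23) lie below the line, while DNAJB9 and HERPUD1 stay near it.

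The regulators of these genes and the neighboring steps of the secretory pathway were read from further lists. Of 15 UPR transducers and transcription factors, 9 were higher and 0 lower, with a median log2 fold change of 0.41. The shares to read these and the following counts against are those of all 12910 genes, 11.0% higher and 7.24% lower. ATF4 rose by 0.43, ATF6 by 0.29 and DDIT3 (CHOP) by 1.05 on the log2 scale (edgeR adjusted p = 0.00185, 0.00769 and 0.0297), and the smallest p belonged to CHAC1, an ATF4 pathway target that degrades glutathione (1.75, adjusted p = 1.1e-04). XBP1 was at 343, 513, 548 and 335 CPM in I/R+DMSO and at 463.5, 674, 686 and 460.1 CPM in I/R+Rk2, overlapping ranges whose log2 fold change of 0.39 did not pass (edgeR adjusted p = 0.241). Gene counts do not separate spliced from unspliced XBP1.

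Of 17 genes of COPII export and retrieval, 10 were higher and 0 lower (median 0.33), with the smallest p for KDELR2, a receptor that returns chaperones to the ER (0.34, edgeR adjusted p = 5.6e-04). Of 16 genes of ER entry and signal peptide removal, 6 were higher and 0 lower (median 0.10), with the smallest p for SEC63, the J-protein of the translocon (0.50, edgeR adjusted p = 4.6e-04). Among 24 other folding factors 4 were higher and 0 lower (median 0.04), with HSPA13 at 0.76 (edgeR adjusted p = 9.0e-05), and among 15 other ERAD factors 2 were higher and 1 lower (median 0.01), with UBXN4 at 0.41 and UBE2G2 at -0.22 (edgeR adjusted p = 9.5e-04 and 0.0191). Among 12 genes of N-glycosylation 3 were higher and 1 lower (median 0.06), with the oligosaccharyltransferase subunits STT3B at 0.26 and OST4 at -0.24 (edgeR adjusted p = 0.00521 and 0.0297). Of the hepatocyte markers, 1 was higher and 1 lower (APOB 0.61 and FGB -0.27, edgeR adjusted p = 0.0124 and 0.0462), and of 7 tested markers of other cells 0 were higher and 2 lower. The shares called higher among the other folding and other ERAD factors were thus near that of all genes (11.0%). No test compared the lists with each other.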

How the data were processed

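RNA-seq of HuH7 cells after OGD/R was analysed, 4 libraries of I/R+DMSO and 4 of I/R+Rk2, grouped by the deposited labels. The authors prepared libraries from 250 ng of RNA with the MGIEasy kit. The authors deposited raw read counts per gene without normalization (15767 rows) and, separately, FPKM per gene, scaled by the authors to gene length and to library size (19799 rows). The submitters' processing notes list FastQC 0.11.5, HISAT2 2.2.1, StringTie 1.3.3 and hg38, while annotation, read counting tool and strandedness are not given in the sources used here. Without strand, reads of antisense genes cannot be told apart. Among the counted genes 22 symbols had been turned into dates (0.1106% of counts) and were left out, as were 27 in the FPKM table.

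Counts were analysed in R 4.3.3 with edgeR 4.0.16 (robust quasi-likelihood test, TMM normalization, at least 10 counts in at least 4 libraries, Benjamini-Hochberg adjustment over 12910 genes, condition as the only term). Fold changes give I/R+Rk2 relative to I/R+DMSO. The steps were tested on simulated data. Alternatives were DESeq2 1.42.0, other normalizations and filters, limma 3.58.1 on log2 FPKM (pseudocount 1 or 0.1, mean of at least 0.5 FPKM), sample-weighted voom, the replicate number as a block, a loess length correction (span 0.5), a 1.5-fold threshold and leaving out each library. Corrections for GC content and the sum of TXNDC5 with BLOC1S5-TXNDC5 were added after seeing the data. Gene overlaps and GC content came from GENCODE v29 (GRCh38), in which 15507 of 15767 symbols were found.

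The members and all lists were chosen with earlier results of these data known. Values in every library are given for members past an adjusted p of 0.05 (at most 8 per direction, by p) and for HSPA5, HSP90B1, CALR, P4HB, DNAJB9, HERPUD1, SEL1L and SYVN1. Other genes named are XBP1, ATF4, DDIT3, ATF6 and the gene with the smallest p in each direction of each list. Any further gene is a marker, or the text says that it was picked with its values in view. With 4 libraries against 4 the smallest exact permutation p is 0.0286.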

Additional observations from a re-analysis of the deposited data

Results flagged for a closer look

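Each gene was examined in each group of 4 libraries for a library far from the other 3, by Dixon's ratio with a critical value of 0.829. Of 90 such groups 4 were flagged, and chance flags about 1 in 20 groups. TXNDC5 was at 552.2 CPM in I/R+Rk2 replicate 3 against 37.7 to 45.8 CPM in the other I/R+Rk2 libraries, with BLOC1S5-TXNDC5 low in the same library. SELENOK was at 36.28 CPM in I/R+DMSO replicate 1 against 20.9 to 22.4 CPM, and SIL1 was at 35.38 CPM in the same library against 31.1 to 31.6 CPM. PDIA6 was at 376.1 CPM in I/R+Rk2 replicate 4 against 410.1 to 412 CPM.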

How the results depend on the processing

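The count of members higher in I/R+Rk2 was 20 and stayed within 1.5 times of that under every alternative except the added requirement of a 1.5-fold change, which left 6 higher and 0 lower members and 393 genes of all 2352. Leaving out each library in turn gave 17 to 24 higher and 1 lower member, 1293 to 2287 genes in all, and an ERAD median between 0.26 and 0.36. Limma on log2(FPKM + 1) and log2(FPKM + 0.1) called 0 members lower, 1123 and 1106 genes in all, and moved the medians to 0.23 and 0.24 (oxidative folding) and to 0.37 and 0.38 (ERAD). It did not call DNAJC10, HERPUD1, OS9 and SELENOS, and called CANX. The length correction gave 2 lower members, alone and together with the replicate block (then 1508 genes in all). With length and GC content the ERAD median was 0.25, with GC content alone it was 0.22 and the BiP system median 0.26. HSP90B1 was lost with GC content alone (adjusted p = 0.0901). ERO1A turned to -0.082 (length and GC) and -0.019 (GC alone). The cause of these changes was not tested.

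Samples with the same number did not deviate together (correlations 0.016, -0.0095, 0.038 and 0.085). These values cannot show whether samples with the same number were handled together. With the replicate block 18 members were higher, 1 was lower and 1815 genes passed in all, and HSP90B1 (0.36, adjusted p = 0.0520) and ERO1A (adjusted p = 0.0655) did not pass. DERL3, with 0 to 3 counts per library, was below the filter. Its 0 counts in I/R+DMSO allow up to 0.163 CPM, against a mean of 8.995 CPM there for CRELD1, the next lowest member. The cause of this low level was not tested.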
